A study of Mus musculus with 36 samples.

Results

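The plasma microRNAs (miRs) of LA-Tg mice were set against those of wild type (WT) mice, with 3 libraries of each, taken by their labels from the 36 libraries of the series. LA-Tg mice carry the Cdh5TA trans-activator, driven by the promoter of VE-cadherin and so active in endothelium, with a TetOp-LA minigene for human wild-type lamin A. They are the transgene control of the series for Prog-Tg mice, whose minigene encodes LAG608G (progerin), the lamin A form of Hutchinson-Gilford progeria. WT mice are labelled as wild-type. All mice were older than 25 weeks, untreated and kept on a C57BL/6J background, and small RNA of EDTA plasma was sequenced. The 3 Prog-Tg plasma libraries, from mice of the same age, entered the model to estimate the spread. They also entered the scaling and the filter on low counts, which sets the miRs that were tested. By the methods, the Prog-Tg and WT plasma came from pairs of littermates. How the LA-Tg mice were related to the WT mice, and whether each LA-Tg library is one animal, is not stated, so p-values measure the spread between these samples.

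miRs are short RNAs that load into Argonaute proteins and repress mRNAs that pair with the seed, bases 2 to 8 of the miR. Plasma holds miRs released from blood cells, muscle, liver, endothelium and other tissues, in vesicles or bound to protein. Plasma is a mixture, and fewer cells of a type and less RNA released per cell cannot be told apart in it.

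The miRs that carry the comparison below are shown first, from RefSeq on GRCm38.p6, 5′ to 3′, with the seed in capitals. miR-106b-3p and miR-484 had a count in all LA-Tg and in none of the WT libraries. miR-127-3p, miR-148b-3p, let-7i-5p and miR-30c-5p were higher in LA-Tg at an unadjusted p under 0.05 by edgeR. miR-378a-3p, the single lower miR at that threshold, had no mature RefSeq sequence among those used and is not printed. miR-34a-5p and miR-31-5p are the miRs the study follows.
miR-106b-3p: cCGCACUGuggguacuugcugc
miR-484: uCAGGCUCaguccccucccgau
miR-127-3p: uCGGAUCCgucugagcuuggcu
miR-148b-3p: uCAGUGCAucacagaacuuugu
let-7i-5p: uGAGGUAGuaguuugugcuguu
miR-30c-5p: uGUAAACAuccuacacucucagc
miR-34a-5p: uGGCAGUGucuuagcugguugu
miR-31-5p: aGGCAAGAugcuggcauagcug
On GRCm38.p6, miR-106b-3p lies at chr5:138165746-138165767 (minus strand), miR-484 at chr16:14159630-14159651 (plus), miR-127-3p at chr12:109592888-109592909 (plus), miR-148b-3p at chr15:103285185-103285206 (plus), let-7i-5p at chr10:122985698-122985719 (minus), miR-31-5p at chr4:88910614-88910635 (minus) and miR-34a-5p at chr4:150068473-150068494 (plus).

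A miR was called detected where it had at least 1 count in a library. LA-Tg plasma held 172, 131 and 104 detected miRs in replicates 1 to 3, against 138, 123 and 109 in WT plasma. The means were 135.7 ± 34.2 in LA-Tg and 123.3 ± 14.5 in WT (SD, n = 3 each), a difference of 12.3 miRs (exact two-sided permutation test, p = 0.70, where 3 against 3 cannot go below 0.10). The WT values lay inside the range of the LA-Tg values. The difference rested on LA-Tg replicate 1, and without it the difference was -5.83 miRs. With a minimum of 10 counts the numbers were 146, 107 and 69 in LA-Tg and 109, 98 and 88 in WT (exact permutation test, p = 0.80).

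**Figure D1:**
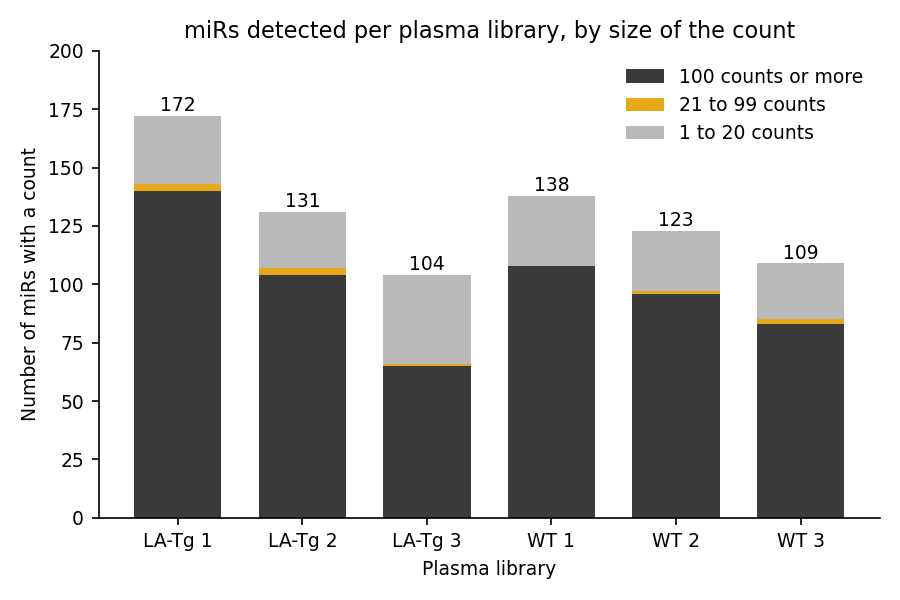
Number of miRs with a count in each LA-Tg and WT plasma library, split by the size of the count. The totals run from 104 to 172 in LA-Tg and from 109 to 138 in WT, and counts of 21 to 99 are rare in every library.

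Of 257 miRs with a count in any of the 6 libraries, 62 had one in all 6. A further 69 were seen only in LA-Tg plasma and 48 only in WT plasma, most of them in a single library (55 of the LA-Tg miRs and 42 of the WT miRs). LA-Tg replicate 1 alone gave 37 miRs seen in no other of the 6 libraries, 30 of them with at least 100 counts. In contrast, LA-Tg replicate 3 gave 5 such miRs. No miR had a count in all 3 WT libraries and none of the LA-Tg libraries, and 2 miRs, miR-106b-3p and miR-484, had the opposite pattern.

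Counts were either large or very small. Among the 777 values above 0 in the 6 libraries, 596 were at 100 counts or more, 171 were between 1 and 20, and 10 lay between 21 and 99. In 86 of the 171 low values the same miR had at least 100 counts in another plasma library. Also within a genotype, 20 miRs in LA-Tg and 19 in WT had at least 1000 counts in a library and 0 in a replicate. For example, miR-16-5p, a miR abundant in blood cells, had 1510, 2124 and 0 counts in LA-Tg plasma, against 2490, 3178 and 1859 in WT plasma. miR-126a-3p, the strand of the endothelial miR-126 pair that is best known for its role in vessels, had 800, 0 and 3652 counts in LA-Tg, against 1451, 0 and 18 in WT. For these miRs a 0 in one library stood beside large counts in its replicates.

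The features of miR-486, a miR of erythroid cells and muscle, held 95.1%, 98.1% and 96.6% of all miR counts in LA-Tg plasma, against 95.1%, 97.5% and 98.0% in WT plasma. Total counts were 16824401 to 25373495 in LA-Tg and 19460824 to 22674234 in WT. These totals are above the number of mapped reads that the methods describe for plasma, so they count features and not reads, and the share of miR-486 among reads may be smaller. Outside miR-486 there were 819699, 353647 and 874085 counts in LA-Tg and 947452, 573392 and 393228 in WT, and this is the depth behind the other miRs. miR-486a-5p and miR-486b-3p had identical counts in every plasma library, as did miR-486a-3p and miR-486b-5p, so the arms of these overlapping hairpins cannot be told apart. Their log2 fold change was -0.36 (standard error 0.577). In the same way miR-1a-3p had 2.00 times the counts of miR-1b-5p in each of the 6 libraries, and miR-199a-3p had 2.00 times those of miR-199b-3p. Counts of miRs with several loci or an antisense partner are therefore uncertain in their absolute level.

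In the levels, no miR passed the adjusted threshold between LA-Tg and WT plasma by edgeR. Values were scaled to CPM, counts divided by the library size in units of 1e+06 after adjustment by the trimmed mean of M-values (TMM), and 118 miRs were tested. The filter on low counts took in the Prog-Tg libraries, and with only the LA-Tg and WT libraries it kept 91 miRs. By edgeR's quasi-likelihood test none was higher and none was lower at an adjusted p under 0.05 (0% each), and the smallest adjusted p was 0.69. At an unadjusted p under 0.05, the threshold of the study for miRs, 4 miRs were higher (3.39%) and 1 was lower (0.847%). limma-voom, the test used by the study, called 0 miRs after adjustment and 4 without it. None of these 4 was among the 5 miRs that edgeR gave at the unadjusted threshold. DESeq2 called 9 after adjustment, which are given below. The CPM of LA-Tg and WT did not overlap for 5 higher miRs (4.24%) and 4 lower miRs (3.39%). For unrelated labels, full separation of 3 against 3 has a probability of up to 0.1 over both directions, and these shares are not above it. Among the higher miRs without overlap, miR-127-3p had 1 count in LA-Tg replicate 3 and 1 in WT replicate 1, so only the scaling separated them. miR-484 had 1 count in LA-Tg replicate 3 against 0 in WT. The shares at the unadjusted threshold are also not above what a p under 0.05 lets through without a difference. The miRs described below are therefore not set apart from chance.

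The size of the fold change went with the zeros. The 60 tested miRs with a count in all 6 libraries had a median absolute log2 fold change of 0.42 and a median standard error of 0.825. In the 58 miRs with a 0 in at least 1 of the 6 libraries these values were 1.77 and 4.17. Among the 47 miRs with over 20 counts in every library, log2 fold changes lay between -1.0 and 1.91, with 15 above 0 and 32 below. The settings moved this split, since other tools, scalings, filters and library sets shifted the median of these miRs by -0.04 to 0.56. Fold changes near 0 have no settled direction under these settings.

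**Figure D2:**
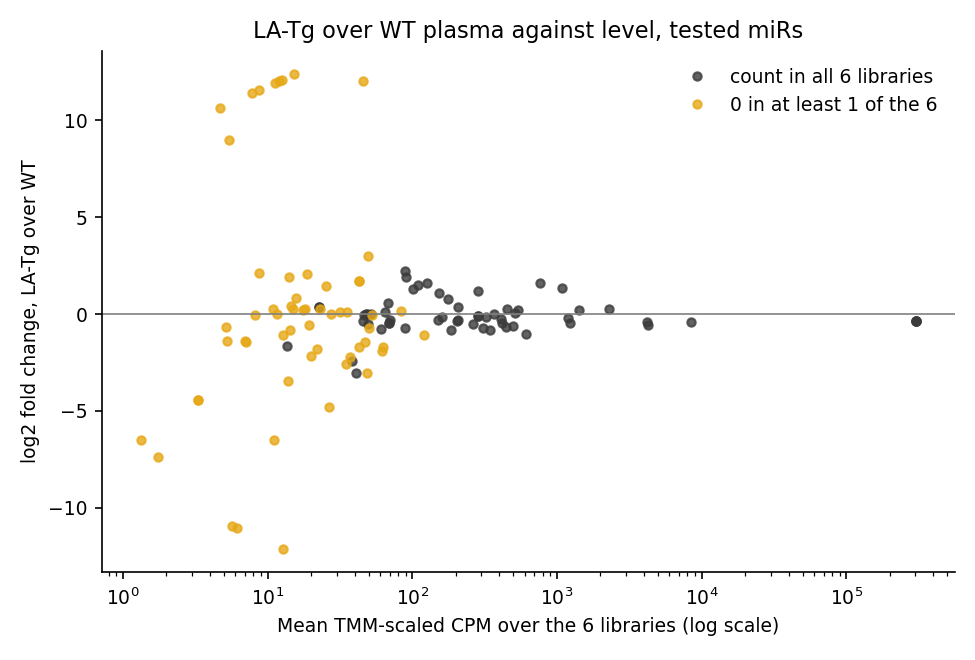
log2 fold change of LA-Tg over WT plasma against the mean TMM-scaled CPM of the 6 libraries on a log axis, one point per tested miR. Points with a count in all 6 libraries run from -3.06 to 2.20, and those with a 0 in at least 1 library from -12.1 to 12.4.

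Of the 5 miRs at an unadjusted p under 0.05, let-7i-5p, miR-30c-5p and miR-378a-3p had a count in every library. let-7i-5p had the smallest p and was named after its values were seen. It belongs to the let-7 family, which is abundant in differentiated cells. It stood at 1901, 1228 and 323.8 CPM in LA-Tg plasma, against 533.5, 288.8 and 296.5 CPM in WT plasma. Replicates 1 and 2 of LA-Tg were above all WT libraries, and replicate 3 was within them. The log2 fold change was 1.63 ± 0.685 (fold change ± standard error), with an adjusted p of 0.69 by edgeR, and lay between 1.16 and 2.48 under the alternatives run.

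miR-30c-5p, of a family expressed in heart, kidney and endothelium, had 3084, 1120 and 491.0 CPM in LA-Tg plasma. WT plasma had 1022, 373.6 and 426.0 CPM. Replicates 1 and 2 of LA-Tg were again the higher ones, and the groups overlapped. Its log2 fold change was 1.37 ± 0.607 (adjusted p of 0.69 by edgeR). In Prog-Tg plasma miR-30c-5p had 124.9, 314.9 and 419.2 CPM and let-7i-5p had 51.8, 311.9 and 512.6 CPM, which are not above the WT values in mean. The Prog-Tg and LA-Tg comparisons share the WT libraries.

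miR-378a-3p lies within the metabolic gene Ppargc1b and is abundant in muscle and brown fat. It was the single miR on the lower side at the unadjusted threshold, with 267.9, 330.5 and 623.7 CPM in LA-Tg plasma, against 720.0, 705.2 and 1026 CPM in WT plasma. All LA-Tg libraries were below all WT libraries. Its log2 fold change was -1.0 ± 0.483 (adjusted p of 0.69 by edgeR), and it stayed below 0 under all alternatives run, from -1.10 to -0.29.

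**Figure D3:**
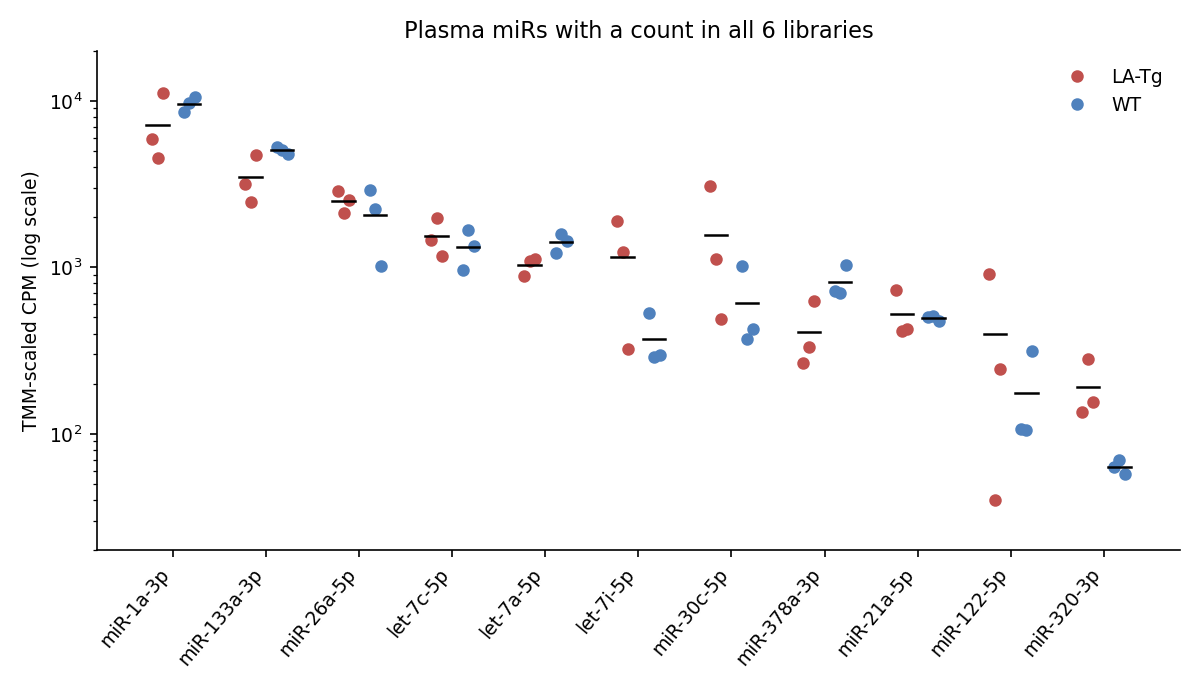
TMM-scaled CPM on a log axis of 11 miRs with a count in all 6 libraries, LA-Tg left of WT, one point per library and a bar at the mean. For miR-320-3p all LA-Tg points are above the WT points and for miR-378a-3p all are below, while let-7i-5p and miR-30c-5p overlap.

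Further miRs without overlap were miR-320-3p, miR-133a-3p, let-7a-5p and miR-186-5p. miR-320-3p, which is made without Drosha, had 3158, 3595 and 3538 counts in LA-Tg plasma, against 1563, 1013 and 616 counts in WT plasma. This gave 190.4 ± 78.1 CPM in LA-Tg and 63.5 ± 6.02 CPM in WT (SD, n = 3 each) and a log2 fold change of 1.58 ± 1.16 (adjusted p of 1.00 by edgeR). Prog-Tg plasma had 114.0, 83.9 and 95.9 CPM, also above the WT range of 57.6 to 69.7 CPM. miR-133a-3p had 3178, 2465 and 4755 CPM in LA-Tg, against 5249, 5069 and 4783 CPM in WT, and let-7a-5p had 891.6, 1088 and 1116 CPM in LA-Tg, against 1217, 1590 and 1444 CPM in WT. Their log2 fold changes of -0.54 and -0.46 turned to above 0 when single libraries were left out, and that of let-7a-5p also without the filter on low counts. miR-186-5p had 1, 145 and 334 counts in LA-Tg, against 1311, 1908 and 363 in WT. This was 0.0428, 11.3 and 14.7 CPM in LA-Tg and 53.0, 131.2 and 34.0 CPM in WT, a log2 fold change of -3.06 ± 2.80 (adjusted p of 1.00 by edgeR). Of the other most abundant miRs, miR-26a-5p had 2880, 2110 and 2552 CPM in LA-Tg, against 2922, 2253 and 1024 CPM in WT, and the groups overlapped.

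Among miRs with zeros, miR-106b-3p was the one with clear counts in all LA-Tg libraries and none in WT. It comes from the miR-106b/25 cluster in an intron of the replication gene Mcm7. It had 697, 228 and 563 counts in LA-Tg plasma and 0 counts in each WT library. Against a floor of 3 counts per WT library, its mean CPM in LA-Tg was at least 119-fold higher, for counting error only. A 0 often stood beside large counts in a replicate, so this value does not cover the spread between libraries. edgeR gave an adjusted p of 0.69, and in Prog-Tg plasma the counts were 0, 0 and 482. Its neighbours in the cluster had other patterns. miR-25-3p had 12842, 10459 and 2768 counts in LA-Tg, against 11043, 4042 and 5502 in WT, and miR-93-5p had 1091, 0 and 0 in LA-Tg, against 879, 487 and 0 in WT, while miR-106b-5p had 0 counts in LA-Tg and 0, 0 and 368 in WT. miR-484 had 481, 334 and 1 counts in LA-Tg and 0 in all WT libraries, so LA-Tg replicate 3 rests on a single count. Set against the floor of 3 counts per WT library, its mean CPM was at least 76.7-fold higher in LA-Tg, with the same limit. This mean comes from LA-Tg replicates 1 and 2. Replicate 3, at 0.0442 CPM, was below the WT floors of 0.121 to 0.281 CPM and cannot be called higher. Prog-Tg plasma had 2006, 661 and 0 counts of miR-484.

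miR-127-3p is a maternally expressed miR of the imprinted Dlk1-Dio3 cluster. It had 2148, 2319 and 1 counts in LA-Tg plasma, against 1, 0 and 0 in WT plasma, and 0, 0 and 160 in Prog-Tg plasma. miR-148b-3p, a member of the miR-148/152 family, had 505, 596 and 0 counts in LA-Tg and 0 in each WT library, but 1553, 1859 and 779 in Prog-Tg. Their unadjusted p-values of 0.032 and 0.038 by edgeR went with an adjusted p of 0.69 for each. In both miRs LA-Tg replicate 3 was at 0 or 1 count, like WT. Both, like miR-484, passed the filter on low counts only with the Prog-Tg libraries in it. A fitted fold change of such miRs depends on the prior count and is not a bound.

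The 9 miRs called by DESeq2 all had libraries at 0. 7 were higher in LA-Tg, namely miR-106b-3p, miR-127-3p, miR-148b-3p, miR-151-5p, miR-181c-5p, miR-1941-5p and miR-28a-5p. miR-28a-5p had 0, 1184 and 0 counts in LA-Tg and 0 in all WT libraries, so this call came from LA-Tg replicate 2. The 2 lower miRs were miR-92b-3p, with 0 counts in all LA-Tg libraries against 1152, 440 and 0 in WT, and miR-375-3p, a miR of pancreatic islets and gut, with 0 in all LA-Tg libraries against 0, 378 and 86 in WT. None of the 9 had a count in all 6 libraries. Apart from miR-106b-3p, they passed the filter on low counts only with the Prog-Tg libraries in it.

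**Figure D4:**
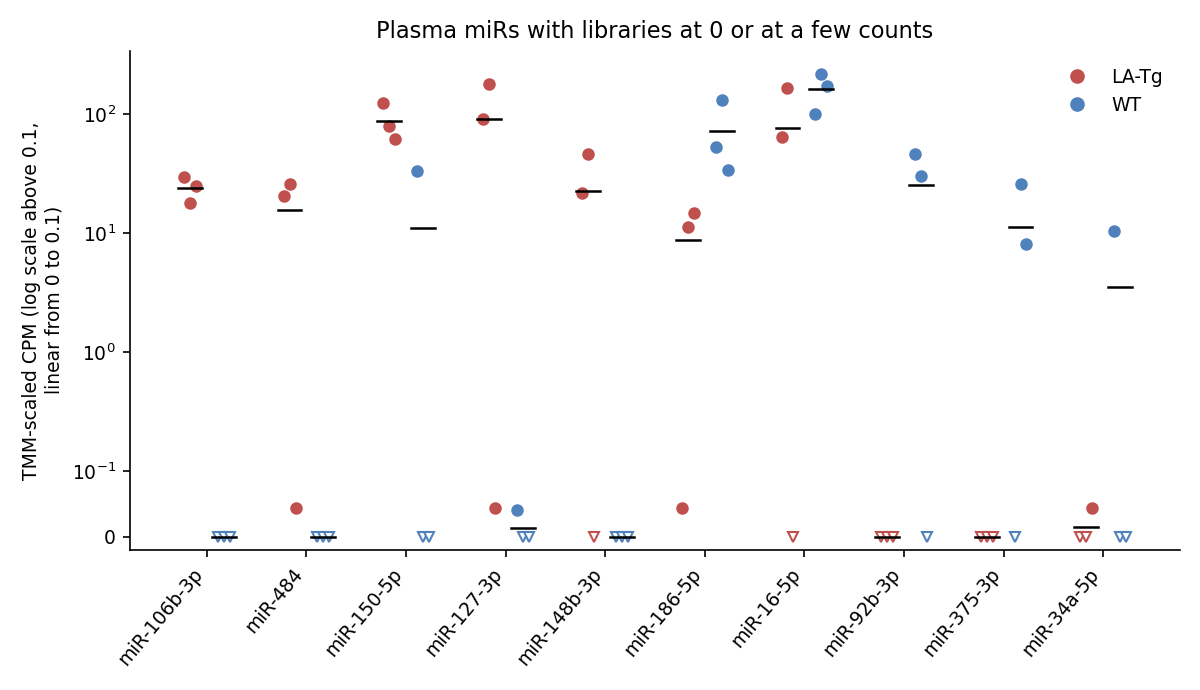
TMM-scaled CPM of 10 miRs with zeros or few counts, LA-Tg left of WT, one point per library, open triangles for libraries at 0 and a bar at the mean. The axis is linear from 0 to 0.1 and logarithmic above. miR-106b-3p has all LA-Tg points above 10 CPM and all WT points at 0, while most others have a replicate near 0 in both genotypes or in one.

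The remaining miRs are given by list. Median log2 fold changes of the lists kept their sign under all alternatives run for platelet and myeloid, lymphocyte and miR-15/16 seed miRs. The miR-15/16 median is that of 2 tested miRs, both with zeros, while miR-195a-5p, seen only in LA-Tg, was not tested. The Dlk1-Dio3 list had a single tested miR, miR-127-3p, whose log2 fold change also stayed above 0. For the erythrocyte, endothelial, liver, muscle, senescence, let-7, miR-30 and miR-17/92 lists the sign changed under at least 1 alternative. The let-7 family was the best covered list, with all 9 members in all 6 libraries and sharing the seed GAGGUAG. 1 member, let-7i-5p, passed the unadjusted threshold and none passed the adjusted one, and 5 fold changes were above 0 and 4 below. The median log2 fold change was 0.21, beside -0.17 over all 118 tested miRs. let-7c-5p had 1463, 1978 and 1164 CPM in LA-Tg, against 959.7, 1667 and 1343 CPM in WT, and let-7f-5p had 1156, 814.4 and 1361 CPM in LA-Tg, against 1254, 1564 and 989.9 CPM in WT, so these abundant members overlapped. let-7i-5p differs from let-7a-5p at 4 positions outside the seed, let-7c-5p at 1.
let-7a-5p: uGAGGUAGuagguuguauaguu
let-7c-5p: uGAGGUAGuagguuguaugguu
let-7f-5p: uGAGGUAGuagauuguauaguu
let-7e-5p: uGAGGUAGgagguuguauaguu
miR-98-5p: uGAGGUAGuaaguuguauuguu
These are given to show how close in sequence the members are that had unlike values. In LA-Tg replicate 3, let-7e-5p and miR-98-5p stood at 311.1 and 346.0 CPM, against at most 71.2 and 51.2 CPM in the other LA-Tg libraries and at most 85.3 and 63.5 CPM in WT. In that library let-7i-5p was lowest of the 3 LA-Tg libraries.

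The miR-30 family had 5 members, 4 of them in all 6 libraries, and miR-30c-5p alone passed the unadjusted threshold. The median log2 fold change was -0.01. miR-30d-5p had 344.2, 276.8 and 425.0 CPM in LA-Tg, against 572.5, 567.9 and 317.0 CPM in WT (log2 fold change -0.48, standard error 0.530). miR-30e-5p had 289.7, 122.6 and 239.1 CPM in LA-Tg, against 223.8, 284.9 and 424.1 CPM in WT. miR-30a-5p averaged 369.2 ± 223 CPM in LA-Tg and 370.9 ± 63.7 CPM in WT (SD, n = 3 each). miR-30b-5p had 696, 473 and 12 counts in LA-Tg, against 428, 3 and 0 in WT (log2 fold change 1.94, standard error 3.67), with a value above 0 like miR-30c-5p. miR-30a-5p and miR-30e-5p, shown here, share the seed of miR-30c-5p and had log2 fold changes of -0.01 and -0.52.
miR-30a-5p: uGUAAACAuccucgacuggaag
miR-30e-5p: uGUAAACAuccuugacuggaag

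**Figure D5:**
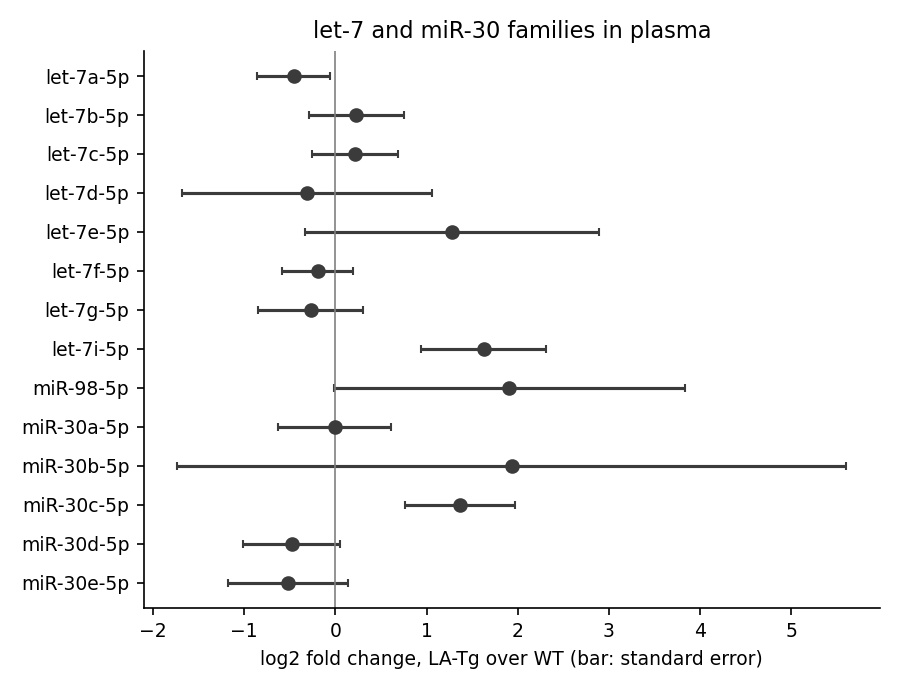
log2 fold change of LA-Tg over WT plasma for the let-7 and miR-30 families, with bars of 1 standard error. The bars of let-7i-5p (1.63) and miR-30c-5p (1.37) lie above 0 and that of let-7a-5p (-0.46) below it, and the bars of the other members reach 0.

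The muscle list, with miRs that are made in heart and skeletal muscle, was detected in all 6 libraries for 6 of its 7 members. No member passed a threshold, and the median log2 fold change was -0.36. miR-1a-3p, which was the most abundant miR after miR-486, had 5860, 4538 and 11204 CPM in LA-Tg and 8553, 9758 and 10564 CPM in WT (log2 fold change -0.42, standard error 0.354). The cardiac miR-208b-3p had 6040, 1159 and 4723 counts in LA-Tg, against 6491, 5393 and 622 in WT. miR-206-3p, made in skeletal muscle and also on the list of miRs linked to senescence by the study, had 4602, 3120 and 17 counts in LA-Tg, against 18, 852 and 389 in WT. LA-Tg and WT each held a library with under 20 counts of it.

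Of 6 miRs of liver, gut and pancreas, 4 had a count and none passed a threshold by edgeR (median log2 fold change 0.33, and -0.24 without LA-Tg replicate 1). miR-122-5p, the main miR of hepatocytes, had 909.7, 40.0 and 244.3 CPM in LA-Tg, against 106.9, 105.9 and 314.3 CPM in WT. miR-192-5p, of liver and gut epithelium, had 347.0, 18.2 and 123.2 CPM in LA-Tg, against 40.8, 60.9 and 70.4 CPM in WT. In both, LA-Tg replicate 1 was the highest and LA-Tg replicate 2 the lowest of the 6 libraries, so the spread within LA-Tg was larger than the difference of the means.

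Blood cell miRs gave no called change. All 10 erythrocyte features had a count in at least 1 library, 7 were tested and none passed a threshold (median log2 fold change -0.36). The miR-486 features among them have near-identical counts, and this median is a miR-486 value. The other tested members were miR-451a (-0.06, standard error 3.00), miR-16-5p (-1.10, standard error 1.39) and miR-92a-3p (-0.73, standard error 1.23). Of the counts of all features, erythrocyte miRs made up 95.2%, 98.1% and 96.6% in LA-Tg plasma, against 95.2%, 97.5% and 98.0% in WT plasma (exact permutation test, p = 1.00). Outside miR-486 they made up 0.785%, 1.24% and 0.0863% in LA-Tg, against 0.602%, 1.23% and 0.739% in WT. The log2 ratio of miR-451a, a miR of red cells, to miR-23a-3p, which is used as a sign of hemolysis, was 1.32, 1.91 and 0.00 in LA-Tg plasma, against 1.83, -6.29 and 0.31 in WT plasma (exact permutation test, p = 0.60). The ratio was taken after adding 0.5 to each count. Both miRs were at 0 in LA-Tg replicate 3, so its ratio is set by that added count. miR-451a was at 19 counts in WT replicate 2, and without that library the difference of 2.46 was 0.00799. The ratio therefore gives no reading of hemolysis between the genotypes. The 3 exact tests gave an adjusted p of 1.00 each.

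Of 8 platelet and myeloid miRs 5 were tested and none passed a threshold, with a median log2 fold change of 0.08. miR-21a-5p averaged 523.9 ± 178 CPM in LA-Tg and 496.7 ± 19.2 CPM in WT, and miR-199a-3p averaged 305.9 ± 136 CPM in LA-Tg and 340.0 ± 106 CPM in WT (SD, n = 3 each). Of 6 lymphocyte miRs 4 were tested and none passed a threshold (median log2 fold change 1.24, and 6.10 without WT replicate 2). miR-150-5p, a miR of mature lymphocytes, had 2908, 1019 and 1393 counts in LA-Tg plasma, against 818, 0 and 0 in WT plasma. Its groups did not overlap, and its log2 fold change was 3.00 ± 3.43 (adjusted p of 1.00 by edgeR). Without WT replicate 1, the one WT library with counts of it, the fitted value was 13.9, which is no bound. Prog-Tg plasma had 0, 0 and 1 counts of it. miR-181a-5p, the other abundant lymphocyte miR, had 4553, 1768 and 8362 counts in LA-Tg, against 6427, 1814 and 1696 in WT.

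The transgene is driven in endothelium, and all 6 endothelial miRs of the list were tested. None passed a threshold and 5 of the 6 had a fold change below 0 (median -0.60, and 0.13 without WT replicate 1). Over all 118 tested miRs, 70 were below 0. The 5 include miR-10a-5p, which averaged 48.0 CPM in LA-Tg and 48.0 CPM in WT. miR-126a-5p had 25.1, 87.2 and 61.2 CPM in LA-Tg, against 115.5, 27.1 and 98.9 CPM in WT (log2 fold change -0.48, standard error 1.26). Its counts were identical to those of the antisense miR-126b-3p. miR-221-3p had 1554, 0 and 1057 counts in LA-Tg, against 2746, 338 and 555 in WT. Standard errors of the endothelial miRs were 1.26 to 4.30 on the log2 scale.

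Of the 6 miRs that the study linked to senescence, 3 had a count in LA-Tg or WT plasma and 2 were tested. The study chose that list on endothelial cell libraries of this series, so it is not independent evidence, and its median log2 fold change over the 2 tested was -2.58. From it the study singled out miR-34a-5p and miR-31-5p as also raised in Prog-Tg plasma but not in LA-Tg mice. Their plasma values were thus used in choosing them. miR-34a-5p, a transcriptional target of p53, had 0, 0 and 1 counts in LA-Tg plasma, against 259, 0 and 0 in WT plasma, and 1632, 2915 and 0 in Prog-Tg plasma. By edgeR the adjusted p of LA-Tg versus WT was 1.00 for miR-34a-5p, and its fold change turned round without WT replicate 1 (log2 fold change 1.87). miR-31-5p had 0 counts in all LA-Tg and WT plasma libraries, which allows a level of up to 0.129 to 0.233 CPM in LA-Tg and 0.121 to 0.281 CPM in WT, by 3 counts per library and for counting error only. Prog-Tg plasma had 0, 0 and 468 counts of miR-31-5p. miR-34c-5p had 547, 0 and 0 counts in LA-Tg and 0 in WT.

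In cultured lung endothelial cells, taken from younger mice and sequenced with another kit, the same miRs were present in both genotypes (CPM of the library total). There miR-34a-5p had 5256, 5486 and 12476 CPM in LA-Tg and 9127, 5798 and 3051 CPM in WT, and miR-31-5p had 1509, 1952 and 3137 CPM in LA-Tg and 1251, 2357 and 836.1 CPM in WT. In the conditioned medium of these cells miR-34a-5p had 233.9, 300.0 and 36.2 CPM in LA-Tg and 467.5, 59.6 and 385.1 CPM in WT. miR-486 features held 64.2% of counts in LA-Tg medium replicate 1 and 50.6% in WT medium replicate 2. In the other LA-Tg and WT medium libraries they held 0.807% to 4.94%. This share lowers the CPM of all other miRs in those replicates of the medium. miR-106b-3p, which was at 0 in WT plasma, had 105.4, 113.0 and 452.1 CPM in WT endothelial cells and 423.7, 46.2 and 109.6 CPM in their medium. LA-Tg cells had 354.3, 129.4 and 309.7 CPM of it and LA-Tg medium had 0.879, 195.0 and 0 CPM. The groups overlapped in both materials, and in medium the LA-Tg mean was the lower one, unlike in plasma. These materials were not tested against plasma.

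The 35 miRs of the imprinted Dlk1-Dio3 cluster were mostly undetected, with a count for 8 of them and none in all 6 libraries. Only miR-127-3p was tested. miR-409-3p had 243, 453 and 0 counts and miR-541-5p had 507, 257 and 0 counts in LA-Tg, and both had 0 in WT. In contrast, miR-379-5p had 0 counts in LA-Tg and 0, 0 and 707 in WT, and miR-411-5p had 0 in LA-Tg and 0, 730 and 0 in WT. miR-431-5p and miR-433-3p had 540 and 273 counts in LA-Tg replicate 1 and 0 in the other 5 libraries. Of the 8 detected members, 5 had their counts in LA-Tg replicate 1 or replicates 1 and 2 with at most 1 count elsewhere, and 3 were seen only in WT, each in 1 library. Over all 257 detected miRs, 69 were seen only in LA-Tg and 48 only in WT, and 37 only in LA-Tg replicate 1. Whether the cluster departs from these shares was not tested.

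Of 13 miRs of the miR-17/92 cluster and its paralogs 8 had a count and 5 were tested, and none passed a threshold by edgeR (median log2 fold change -0.56). miR-92a-3p had 1053, 1570 and 754 counts in LA-Tg, against 1439, 3864 and 102 in WT. miR-19b-3p had 128, 0 and 0 counts in LA-Tg, against 0, 2224 and 0 in WT. Of 6 miRs with the miR-15/16 seed 5 had a count and 2 were tested, without a call. miR-15a-5p had 0 counts in LA-Tg, against 0, 132 and 299 in WT, while miR-195a-5p had 0, 197 and 2600 counts in LA-Tg and 0 in WT. miR-16-5p and miR-195a-5p are shown because they share the seed, while miR-16-5p had counts in all WT libraries and miR-195a-5p in none.
miR-16-5p: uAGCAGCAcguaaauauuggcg
miR-195a-5p: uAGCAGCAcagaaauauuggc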

How the data were processed

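Plasma small RNA libraries were made by the authors with the CleanTag Small RNA kit, for which no molecular identifiers are described. The authors aligned reads to GRCm38 with STAR 2.5.1b and counted them per miR with HTSeq 0.5.4p3. The strand setting and the treatment of reads with several loci are not given in the sources used here. The deposited raw counts of 1907 miR features were used, and the comparison tables of the authors (fold changes, p-values) were not.

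The 9 plasma libraries were fitted together in edgeR 4.0.16 (R 4.3.3) with TMM scaling and filterByExpr (minimum count 10, minimum total 15), which kept 118 miRs. LA-Tg and WT were compared by the quasi-likelihood test with Benjamini-Hochberg adjustment over the 118, and the standard error is the log2 fold change divided by the root of F. Single values were compared by exact permutation tests. The code was tested on simulated data. The pass condition was set only for a spread between libraries smaller than that of these data. It therefore does not show how many changes would be found here.

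The members and lists were chosen with earlier results of these data known. Named were the 8 miRs with the highest mean CPM, the 8 with the smallest p among those whose CPM did not overlap, miRs with a count in all libraries of one genotype and none of the other, the 2 most abundant of each of 12 lists, and miR-34a-5p and miR-31-5p. let-7i-5p, miR-148b-3p, other DESeq2 calls and the let-7 and miR-30 families were added after their values were seen, as were the further list members named. 35 of the 52 miRs had a mature sequence in RefSeq.

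Alternatives were DESeq2 1.42.0, limma-voom (limma 3.58.1), other filters and scalings, the features of miR-486 left out, identical miRs collapsed, a replicate block and each library left out. Intervals and floors cover counting error only.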

Additional observations from a re-analysis of the deposited data

How the results depend on the processing

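No plasma miR was called at an adjusted p under 0.05 by edgeR under any filter, scaling or set of libraries tried, while DESeq2 called 9 and limma-voom without a filter, which was chosen after seeing the data, called 1 (miR-106b-3p). At an unadjusted p under 0.05 there were 5 miRs, and 14 with DESeq2, 16 without a filter, 8 with library size alone, 3 with only the LA-Tg and WT libraries and 19 with limma-voom without a filter. Leaving out single libraries gave 0 to 0 calls at the adjusted p and 3 to 9 at the unadjusted p, where the number was 9 when LA-Tg replicate 3 was left out, 8 for Prog-Tg replicate 3 and 3 for WT replicate 2. With a replicate block 0 miRs were called and 4 had an unadjusted p under 0.05. Same-numbered LA-Tg and WT libraries had correlations of 0.19, 0.09 and -0.12 in their deviations from the group means, so the numbers were not taken as pairs. The difference in the number of detected miRs ran from -5.83 to 28.2 and that in the share of erythrocyte miRs from -1.15 to 0.44 percentage points as single libraries were left out, with the first below 0 without LA-Tg replicate 1 and the second above 0 without LA-Tg replicate 1, WT replicate 2 or WT replicate 3. The median log2 fold change of the 47 best covered miRs moved by 0.29 with library size alone and 0.13 with RLE scaling, by 0.52 without a filter and, over the 43 of them left, by 0.34 with identical miRs collapsed.

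Of 48 miRs with a log2 fold change, 26 kept their direction under all alternatives run and 22 did not. Without a filter the log2 fold change was 0.23 for all features of miR-486, 0.0836 for miR-1a-3p and miR-1b-5p, 0.0952 for let-7a-5p, 0.32 for let-7f-5p, 0.0436 for miR-30d-5p, 0.23 for let-7g-5p, 0.45 for miR-30a-5p, 0.36 for miR-199a-3p, 0.28 for let-7d-5p and 0.0986 for miR-126a-5p. With identical miRs collapsed it was 0.0468 for miR-486a-5p, 0.0463 for miR-486a-3p, 0.15 for let-7f-5p, 0.0578 for let-7g-5p, 0.30 for miR-30a-5p, 0.19 for miR-199a-3p and 0.0891 for let-7d-5p. With library size alone it was 0.11 for let-7f-5p, 0.14 for let-7g-5p, 0.39 for miR-30a-5p, 0.20 for miR-199a-3p and 0.0104 for miR-30e-5p. limma-voom gave -0.13 for let-7b-5p and -0.24 for miR-25-3p. For miR-30a-5p DESeq2 and RLE scaling gave 0.12, and leaving out the miR-486 features gave 0.14. With the replicate block miR-181a-5p was at -8.3e-05. As single libraries were left out the log2 fold change ran from -0.67 to 0.44 for miR-486, -0.50 to 0.23 for miR-1a-3p and miR-1b-5p, -0.51 to 0.062 for miR-133a-3p, -0.57 to 0.17 for let-7a-5p, -0.21 to 0.41 for let-7f-5p, -0.39 to 0.071 for miR-30d-5p, -0.29 to 0.39 for let-7g-5p, -0.030 to 0.84 for miR-30a-5p, -0.10 to 0.52 for miR-199a-3p, -0.71 to 0.25 for miR-30e-5p, -0.29 to 0.49 for let-7d-5p, -1.06 to 1.42 for miR-92a-3p, -0.54 to 0.40 for miR-126a-5p, -1.07 to 0.25 for miR-221-3p and -9.25 to 1.87 for miR-34a-5p. The cause of these changes was not tested.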
